A study of Mus musculus with 10 samples.

Results

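The Rab genes encode small GTPases of membrane traffic. They were taken from the RIP-seq matrix as every protein-coding gene whose name is Rab followed by a number, with or without a letter, which gave 48 genes of 15899. RIP-seq sequences the RNA that an antibody pulls down together with a protein. The protein here was MEX3A, an RNA-binding ubiquitin ligase, carrying a 3X-FLAG tag that was inserted by genome editing ahead of the stop codon of both alleles (Mex3aFLAG/FLAG, called FLAG). Neurosphere cultures, which are free-floating cultures of neural stem and progenitor cells, were grown with EGF and FGF from the subependymal zone of mice at 10 weeks of age, and untagged Mex3a+/+ cultures of the same C57BL/6J background (called WT) gave the RNA that the antibody beads retain without a tag. The immunoprecipitation was done on crosslinked cells (2 libraries of FLAG, 2 of WT) and on native cells that had not been crosslinked (3 of FLAG, 3 of WT). All 10 are libraries of pulled-down RNA, and input RNA was not analysed here, so that a difference between FLAG and WT can reflect the amount of a transcript in the cells as well as its recovery, which pulldown libraries alone cannot tell apart. In bulk cultures, more cells of a type and more RNA per cell cannot be told apart either.

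A Rab protein works as a switch. It is bound to a membrane and recruits effectors while it holds GTP, and it is taken off the membrane by the chaperone GDI after its GTP has been hydrolysed. Exchange factors (GEFs) load GTP, TBC-domain proteins (GAPs) speed hydrolysis, and geranylgeranyl groups on cysteines at the C-terminal end anchor the protein. Each organelle of the secretory and endocytic routes is marked by its own Rab proteins, and neurons and epithelia have further members for synaptic vesicles and for polarized transport.

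Of the 48 genes, Rab25 had the largest increase in FLAG on the values as deposited. In size, the decrease of Rab3b was larger in the crosslinked libraries (-3.76 against 3.37). Over all libraries it was also larger with low values raised to a common floor (-3.08 against 3.05) and with a pseudocount of 1 (-2.76 against 1.61). Rab25, also known as Rab11c, is a relative of Rab11a and Rab11b that is best known from the recycling endosomes of epithelia, and it is the direct neighbour of the edited gene (Ensembl gene ENSMUSG00000008601). In GRCm38, Mex3a lies on the plus strand of chromosome 3 from 88532395 to 88541396 and Rab25 on the minus strand from 88542029 to 88548300. The 2 genes therefore face each other with their 3′ ends, 632 bases apart. The Mex3a stop codon, where the tag was placed, is 4215 bases before the end of the annotated Mex3a transcript and 4848 bases from the nearest base of Rab25. The sequences of the edited site (chromosome 3, 88537167 to 88537196, stop codon in capitals) and of the bases around the poly(A) signal of Rab25 (AATAAA in capitals, which begins 29 bases ahead of the annotated end) are given here, each as 30 bases around the capitals, in transcript sense from GENCODE M21 and the GRCm38 genome, because they are the edited position and the part of Rab25 that faces it.
Mex3a stop codon: cgaatattttccTAAgctccatgtccctgg
Rab25 poly(A) signal: cgagggccggaaAATAAAgctgttttgtat
The Mex3a transcript had no AATAAA in its last 50 bases, where 61.1% of 12096 coding genes with a 3′ UTR of at least that length had it on the transcribed strand. The search covered those 6 letters and no variant of them.

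The values are the log2 values of the deposited matrix, in which each library has nearly the same distribution. The matrix was deposited as a filtered one, so genes low in every library may be missing from it. Rab25 stood at 1.23 and 1.40 in the crosslinked FLAG libraries and at -2.04 and -2.08 in the crosslinked WT libraries. In native conditions it stood at 1.87, 1.70 and 0.55 in FLAG and at -3.55, -2.96 and -2.33 in WT. All 5 FLAG libraries lay above all 5 WT libraries, and the lowest FLAG library was still positive while the highest WT library was negative. In 4 of the 5 WT libraries Rab25 was the lowest of all 48 Rab genes, and in no FLAG library was it the lowest. This rank holds among the genes that the filter kept. Rab25 may have been kept through its FLAG values, so its low rank in WT is not separate support for the difference.

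In the fit of all 10 libraries, which held the protocol as a covariate, Rab25 was higher in FLAG by 3.94 on the log2 scale (SE 0.40, 95% interval 3.07 to 4.82, limma adjusted p = 0.00405 over all 15899 genes), which is the 7th largest increase in the matrix. The size of this difference depended on how low values were treated. It was 1.61 with a pseudocount of 1 (limma adjusted p = 0.00447) and 0.38 with a pseudocount of 8, which is far above the linear level of Rab25 and took the difference under the fold of a call. The lowest value that a library can show also differed, at -1.70 and -1.99 in FLAG native replicates 1 and 3 and at -5.67 to -4.86 in the other 8 libraries. Of the 48 Rab genes, Rab25, Rab17 and Rab7b had values under -1.70, 3 in crosslinked WT, 7 in native WT and 0 in FLAG, so that these WT values lie below what FLAG native replicate 1 can show. With all values under -1.70 raised to it, a fit added after the values were seen, Rab25 was higher by 3.05 (SE 0.29, limma adjusted p = 0.00260), and by 3.02 and 3.08 in the crosslinked and native libraries. Rab25 was called in 10 of 10 fits that left out 1 library. A gene was called when its adjusted p was under 0.05 and its log2 difference over 0.58 in either direction, after the thresholds of the study. Rab25 was the only Rab gene called higher (1 of 48), and none was called lower, where 0.264% of all genes were called higher and 0.233% lower. At an unadjusted p under 0.05 and past the same fold, 5 Rab genes were higher (10.4%) and 3 lower (6.25%), against 7.24% and 5.28% of all genes. The 47 other Rab genes ranged from -3.08 to 1.71, and 40 of them (85.1%) lay within 0.58 of no change, as did 80.7% of all genes. Their median was 0.14, against -0.03 over all genes.

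**Figure D1:**
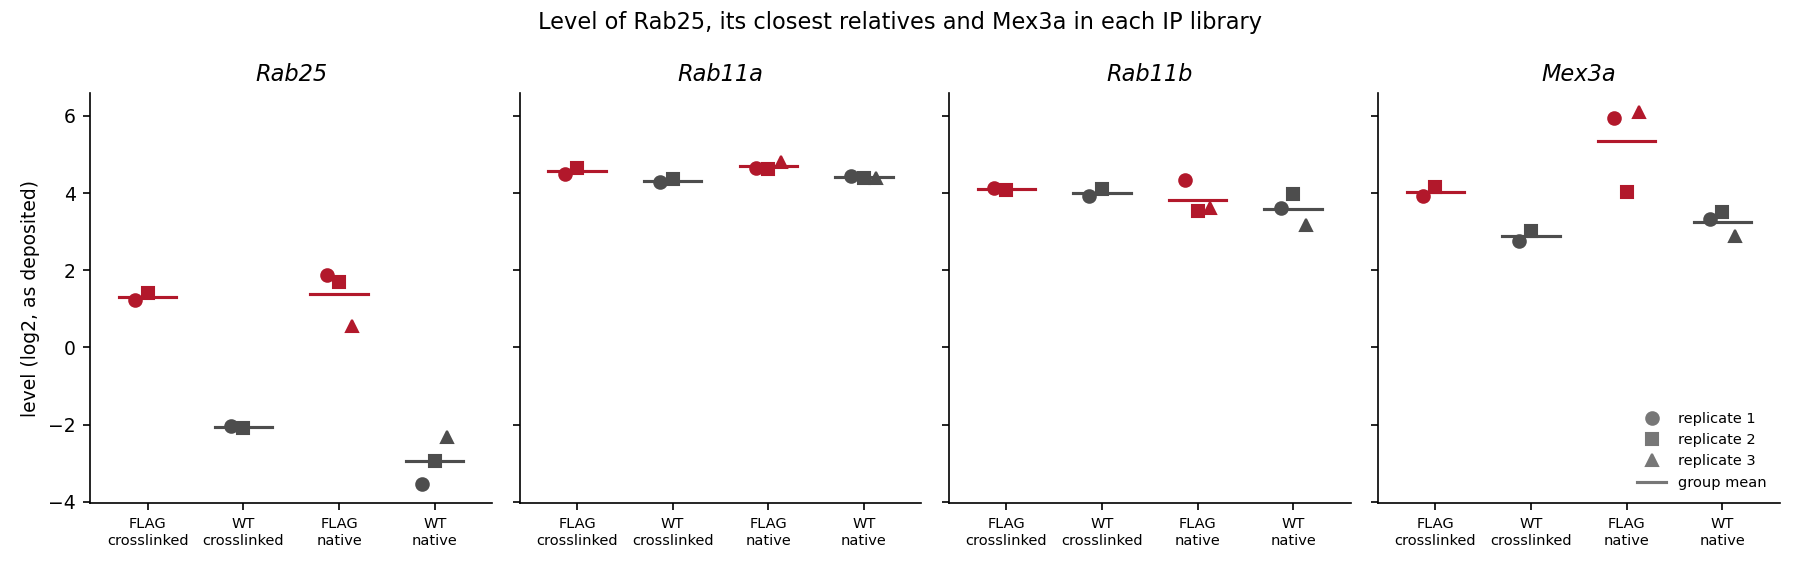
Level of Rab25, Rab11a, Rab11b and Mex3a on the deposited log2 scale (vertical axis) in each of the 10 libraries, by group (horizontal axis), with symbols for the replicate number and lines for group means. Rab25 lay between 0.55 and 1.87 in FLAG and between -3.55 and -2.04 in WT, while the groups of Rab11b overlapped.

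Taken by protocol, the difference of Rab25 was 3.37 (SE 0.27) after crosslinking and 4.32 (SE 0.64) in native conditions. Neither passed the adjusted threshold (limma adjusted p = 0.315 and 0.0643), and in the crosslinked libraries no gene of the matrix was called (0% higher and 0% lower). In native conditions 0% of all genes were called higher and 0.107% lower, and no Rab gene was among them. The study, with DESeq2 on read counts, reported genes enriched in both protocols. These shares of 0% therefore do not mean that the pulldown enriched no RNA. At an unadjusted p under 0.05 and past the fold, 2 Rab genes were higher and 1 lower in the crosslinked libraries (Rab25, Rab39b and Rab6b), where 2.78% and 0.987% of all genes were. In the native libraries 6 were higher (12.5%) and 3 lower (6.25%), against 7.77% and 7.06% of all genes. The difference between the 2 protocols was 0.95 for Rab25 (SE 0.81, limma adjusted p = 0.970), and this test called 0% of all genes. No Rab gene reached an unadjusted p under 0.05 in it.

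The closest relatives of Rab25 had smaller differences. Rab11a, the common Rab of recycling endosomes, read 4.50 and 4.66 in FLAG against 4.28 and 4.37 in WT after crosslinking. In native conditions it read 4.66, 4.63 and 4.80 against 4.43, 4.40 and 4.39. Its groups did not overlap in either protocol, but the difference was 0.28 (SE 0.09, limma adjusted p = 0.155). Rab11b, which is prominent in brain, read 4.13 and 4.08 in crosslinked FLAG, 3.93 and 4.09 in crosslinked WT, 4.33, 3.54 and 3.60 in native FLAG, and 3.62, 3.98 and 3.17 in native WT. Its groups overlapped in both protocols, and its difference was 0.18 (SE 0.19, limma adjusted p = 0.573).

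The excess of Rab25 over these relatives was tested directly on the log2 difference between genes in each library, with an exact two-sided permutation test that exchanged FLAG and WT labels within each protocol. The 120 arrangements allow a smallest p of 0.0167. They treat the protocols as separate, although same-numbered libraries of a genotype deviated together weakly. With the 6 cultures exchanged as units (20 arrangements, smallest p 0.1) none of the 4 tests could pass (exact permutation p = 0.1 for Rab11a, Rab11b and Lamtor2 and 0.2 for Mex3a). Rab25 minus Rab11a was larger in FLAG than in WT by 3.57 (exact permutation p = 0.0167, adjusted p = 0.0222 over 4 such tests), in 5 of 5 FLAG libraries above all WT libraries. Rab25 minus Rab11b was larger by 3.68 (exact permutation p = 0.0167, adjusted p = 0.0222). The longest Rab25 transcript shared no stretch of 75 nt, the read length, with any other annotated gene. Shorter stretches, its other exons and mismatches were not searched.

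Mex3a itself, the gene that carries the tag, read 3.92 and 4.16 in crosslinked FLAG against 2.75 and 3.03 in WT. In native conditions it read 5.95, 4.03 and 6.10 in FLAG and 3.33, 3.52 and 2.89 in WT. It was higher in every FLAG library, by 1.73 over all libraries (SE 0.37, limma adjusted p = 0.0789), and did not pass the test. The increase of Rab25 exceeded that of Mex3a by 2.22 (exact permutation p = 0.0333, adjusted p = 0.0333), and by 2.22 and 2.21 within the crosslinked and the native libraries. Every WT value of Rab25 lay under -1.70, and no value of Mex3a did. With values under -1.70 raised to it, Rab25 differed by 3.02 and 3.08 in the 2 protocols, against 1.15 and 2.11 for Mex3a. The size of the excess, also over Rab11a, Rab11b and Lamtor2, therefore depends on low values, and these tests were not repeated with that floor. Over all libraries Rab25 minus Mex3a overlapped, with -5.55 to -2.32 in FLAG and -6.87 to -4.79 in WT. The order of the native FLAG libraries differed between the 2 genes, since replicate 3 was the highest for Mex3a and the lowest for Rab25.

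Around the locus, the increase was largest at Rab25. The gene beyond it, Lamtor2, which encodes a subunit of the Ragulator complex on late endosomes, lies 1518 bases upstream of Rab25 on the same strand. Lamtor2 read 0.43 and 0.38 in crosslinked FLAG against -1.46 and -0.86 in WT, and 2.08, 1.26 and 2.32 in native FLAG against 1.35, -0.51 and 1.47 in WT. It differed by 1.57 after crosslinking and by 1.11 in native conditions (1.30 over all libraries, SE 0.40, limma adjusted p = 0.137), and its native groups overlapped. Rab25 minus Lamtor2 was larger in FLAG by 2.51 (exact permutation p = 0.0167, adjusted p = 0.0222), and over all libraries its range of -1.77 to 1.02 in FLAG overlapped that of -4.90 to -0.58 in WT. Ubqln4, on the far side of Lamtor2, differed by -0.06 and 0.10, and Lmna, on the other side of Mex3a, by 0.34 and 0.13. None of the 35 other genes within 500 kb of Mex3a was called over all libraries by limma, with 3 higher and 2 lower at an unadjusted p under 0.05, as were 11.2% and 9.85% of all genes. Their log2 differences had a median of 0.08, from -0.79 (Tsacc) to 1.30 (Lamtor2), and none of the 35 lay above WT in every FLAG library of both protocols, where 4.84% of all genes did. Tsacc and Msto1 lay below WT in every FLAG library of both, where 4.47% of all genes did.

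**Figure D2:**
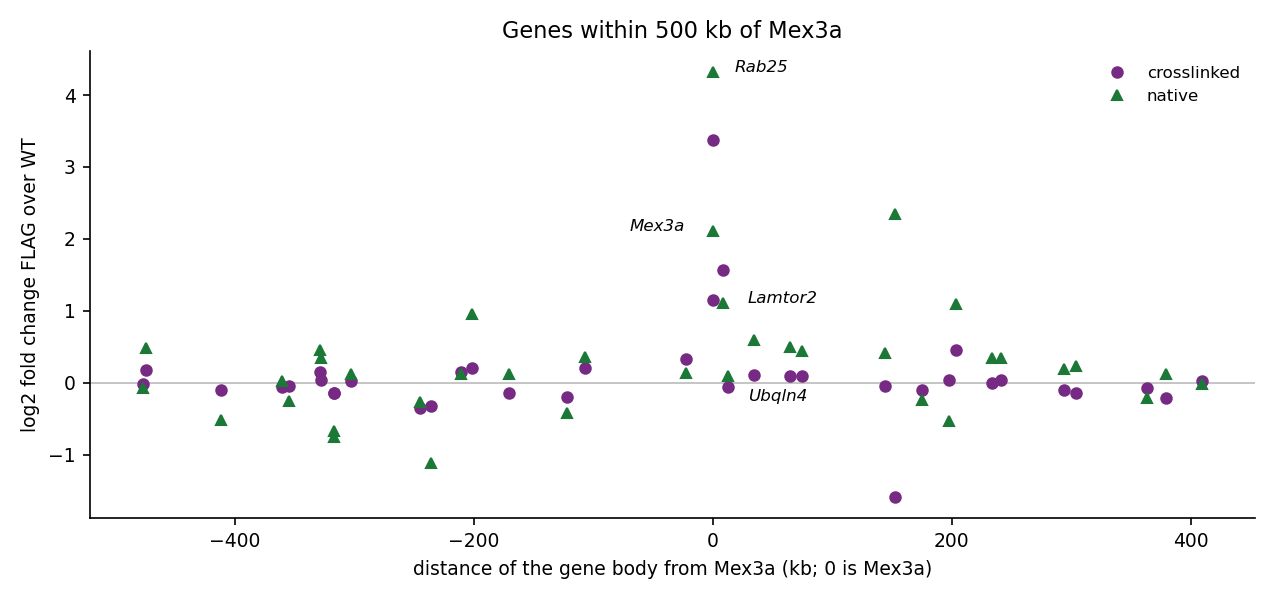
Log2 fold change FLAG over WT (vertical axis) of the genes within 500 kb of Mex3a against their distance from Mex3a in kb (horizontal axis), for the crosslinked (circles) and native (triangles) libraries. Rab25 reached 3.37 and 4.32, Mex3a 1.15 and 2.11, and Lamtor2 1.57 and 1.11.

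The strand of these reads could not be read from the matrix. The libraries were made with a strand-specific kit, and the strand setting of the counting is not given in the sources used here. In the matrix, 5 pairs of genes on opposite strands overlap over at least 80% of the exons of each, and in 4 of the 5 pairs the values differed by a median of less than 0.5 on the log2 scale. In the remaining pair they differed by 8.28. Reads of Rab25 and reads that run through its exons from the opposite strand, such as from the direction of Mex3a, therefore cannot be told apart in these values, and their part in the difference was not tested.

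Epithelium is where Rab25 is best known, and 2 of 18 epithelial markers were in the matrix, Esrp2 and Grhl2. Epcam, Cdh1 and the keratins of the list were not analysed here. The summed level of both markers, on the linear scale of the matrix, ranged from 7.50 to 15.5 in FLAG and from 9.17 to 14.8 in WT, and neither was called. Markers of neural stem and progenitor cells were present for 10 of 12 names, among them Egfr, Slc1a3, Nes and Vim, with sums of 2084 to 2939 in FLAG and 2034 to 2793 in WT. None of the 10 was called, their median difference was 0.65, and 5 were higher and 2 lower at an unadjusted p under 0.05, as were 11.2% and 9.85% of all genes. Their part in the Rab values was not tested. Endothelial markers (3 of 5 names) summed to 12.2 to 22.2 in FLAG and 3.95 to 10.7 in WT, with Flt1 higher by 2.23 (limma adjusted p = 0.0468) and Kdr and Pecam1 at -1.09 and -0.58. Cldn5 and Cdh5, which define endothelium, were not analysed here, and the part of such cells in the Rab values was not tested. Among markers of neuroblasts and neurons (5 of 7 names), Rbfox3 was called lower (-1.31, limma adjusted p = 0.0127), and the other 4 stood at 0.65 (Gad1), 0.61 (Gad2), -0.52 (Syt1) and -0.64 (Snap25). At an unadjusted p under 0.05, 1 of the 5 was higher and 1 lower (11.2% and 9.85% of all genes), with sums of 43.4 to 59.7 in FLAG and 47.2 to 65.4 in WT, and their part in the Rab values was not tested. No marker of oligodendrocytes (2 of 5 names), microglia (3 of 6) or ependyma (2 of 5) was called.

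Set per kb of merged exons, Rab25 was among the lowest in WT of the Rab genes that the filtered matrix holds. Its log2 level per kb was -3.33 ± 0.65 (SD, n = 5), the 47th of 48, between Rab17 (-2.33 ± 1.26) and Rab7b (-3.61 ± 1.08), and these 3 did not differ beyond their spread. In FLAG it was the 33rd, at 0.61 ± 0.51. The highest level per kb was that of Rab31, a Rab of transport between the trans-Golgi network and endosomes, at 6.72 ± 0.20 in WT and 6.83 in FLAG. Rab10, which acts in exocytic and basolateral transport, followed at 5.12 ± 0.04, and Rab2a, which acts between the endoplasmic reticulum and the Golgi, at 4.86 ± 0.12. Rab2a and Rab3b (4.78 ± 0.18), its neighbour in this order, lay within their spread.

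These abundant members differed little between FLAG and WT. On the deposited scale, Rab31 read 8.58 and 8.56 in crosslinked FLAG, 8.58 and 8.37 in crosslinked WT, 8.90, 8.89 and 8.86 in native FLAG, and 8.85, 8.59 and 8.84 in native WT (difference 0.11, SE 0.09). Rab10 read 6.96 and 7.10, 6.94 and 6.97, 6.93, 6.98 and 6.78, and 6.86, 6.93 and 6.96 in the same order of groups (0.02, SE 0.08). Rab2a read 5.97 and 5.94, 5.91 and 6.15, 5.91, 5.91 and 5.94, and 5.85, 5.91 and 5.91 (-0.02, SE 0.09). The groups of Rab10 and Rab2a overlapped in both protocols, and those of Rab31 after crosslinking. All 48 Rab genes together made up 0.138% to 0.159% of the linear total of a FLAG library and 0.138% to 0.149% of that of a WT library.

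**Figure D3:**
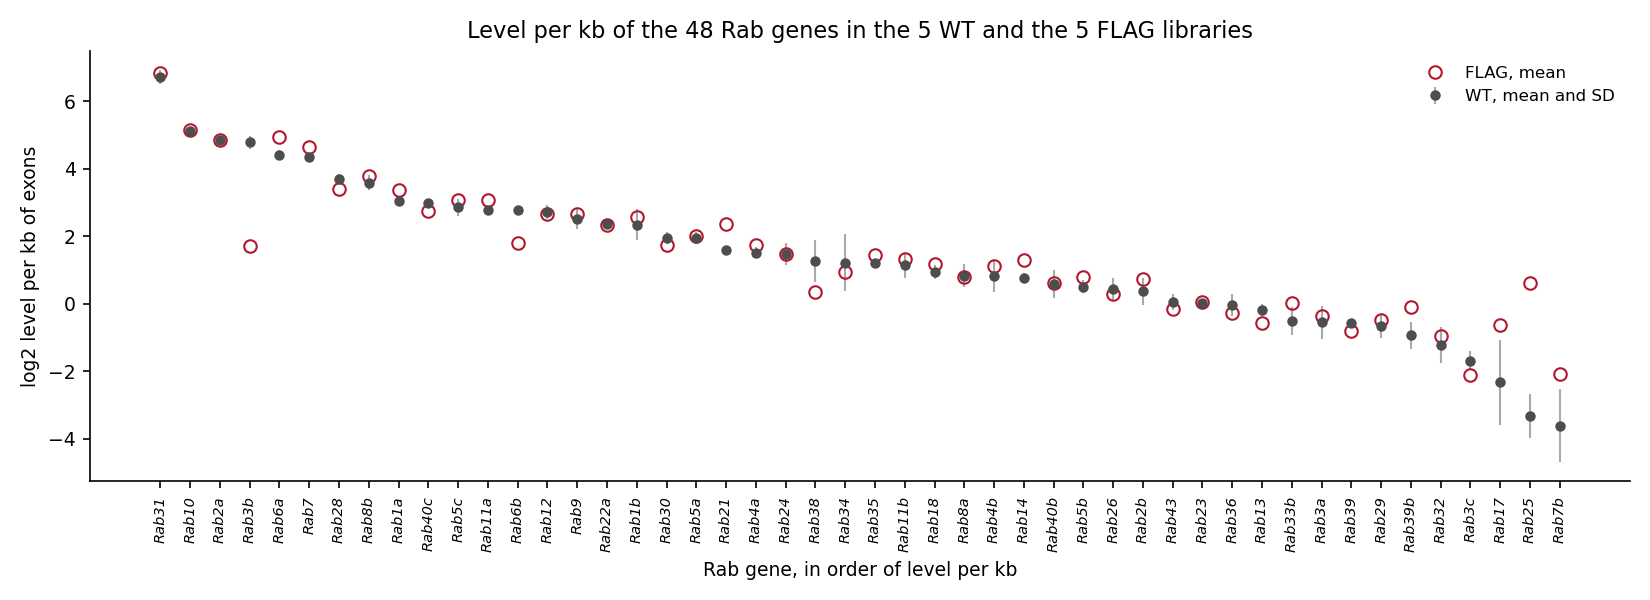
Log2 level per kb of merged exons (vertical axis) of the 48 Rab genes in their order of level in WT (horizontal axis), with the mean and SD of the 5 WT libraries (filled) and the mean of the 5 FLAG libraries (open). Rab25 moved from -3.33 in WT to 0.61 in FLAG and Rab3b from 4.78 to 1.70, and most other open points lie on or near the filled ones.

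Rab genes of early endosomes were called in no comparison of FLAG with WT that used all libraries with equal weight. Of the 6 members, 5 had a positive difference over all libraries, and the median was 0.17. Rab21, which carries integrins through early endosomes, had the largest. It read 4.29 and 4.40 in crosslinked FLAG against 3.75 and 3.96 in WT, and 5.12, 4.19 and 5.44 in native FLAG against 3.86, 4.06 and 3.96. The groups did not overlap in either protocol, and native FLAG replicate 2 was closest to WT. The difference was 0.77 (SE 0.22, limma adjusted p = 0.118) with all libraries and passed the test at 0.95 (limma adjusted p = 0.0238) without FLAG native replicate 2 and at 0.60 (limma adjusted p = 0.000644) with array weights.

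In the recycling endosome group, 10 of 13 members had a positive difference, with a median of 0.21 and Rab25 called. Rab17, a Rab of polarized cells and dendrites, followed Rab25. It read 0.95 and 0.20 in crosslinked FLAG against -1.46 and 0.47 in WT, and 1.07, 0.01 and -0.39 in native FLAG against -2.50, -0.72 and -2.49. Its groups overlapped after crosslinking and not in native conditions, and the difference was 1.71 (SE 0.54, limma adjusted p = 0.139). Both low native WT values lie under the floor of FLAG native replicates 1 and 3, and with the values under -1.70 raised to it the difference was 1.39 (limma adjusted p = 0.147). With array weights, which give libraries that fit the model less closely a lower weight and called 13% of all genes, Rab17 passed the test (1.71, limma adjusted p = 0.00180). In that fit FLAG crosslinked replicate 2 had a weight of 10.2 and WT crosslinked replicate 1 one of 9.02, against 0.12 to 1.36 in the others. Its calls over all libraries therefore rest mostly on these 2 libraries. Rab14, which acts between endosomes and the Golgi, lay above WT in every FLAG library of both protocols, by 0.54 (SE 0.17, limma adjusted p = 0.137). In the native libraries Rab14 was called at 0.87 with array weights (limma adjusted p = 0.0128) and at 0.98 without FLAG native replicate 2 (limma adjusted p = 0.0128). Those native fits called 22.5% and 19.9% of all genes. Rab13, known from tight junctions, was the lowest of the group. It read 0.51 and 0.74 against 0.81 and 0.85 after crosslinking, and 0.40, 0.66 and 0.79 against 1.02, 1.21 and 1.14 in native conditions, all FLAG libraries below WT (-0.39, SE 0.19, limma adjusted p = 0.257).

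Among the 9 Rab genes of late endosomes and lysosomes, 7 had a positive difference (median 0.19), and none was called with all libraries at equal weight. With array weights Rab7b (1.96) and Rab39b (0.75) were called higher and Rab38 (-0.93) lower over all libraries (limma adjusted p = 0.00188, 0.00209 and 0.00156). In the native libraries array weights called Rab7b (2.73) and Rab38 (-1.64), and Rab38 was also called without FLAG native replicate 2 (-1.56, limma adjusted p = 0.0416). Rab7b, which acts between late endosomes and the trans-Golgi network, read -1.26 and 0.07 in crosslinked FLAG against -1.99 and -0.38, and 0.28, 0.81 and 0.74 in native FLAG against -2.68, -0.19 and -1.78 (1.53, SE 0.58, limma adjusted p = 0.186). With the values under -1.70 raised to it, the difference of Rab7b was 1.26 (limma adjusted p = 0.186). Rab39b, a mostly neuronal member, read 1.74 and 1.67 against 0.87 in both WT libraries after crosslinking, and 2.14, 1.04 and 1.80 against 1.02, 1.21 and 0.14 in native conditions (0.85, SE 0.27, limma adjusted p = 0.138). The groups of Rab7b overlapped after crosslinking and not in native conditions, while those of Rab39b overlapped in native conditions and not after crosslinking. Rab25, Rab17, Rab29 and Rab7b were the 4 Rab genes with a mean below 0 on the log2 scale. Rab38, which acts in the making of melanosomes, had a negative difference, with 1.34 and 1.20 against 2.18 and 1.19, and 0.34, 1.40 and 0.71 against 2.57, 1.35 and 2.35 (-0.93, SE 0.33, limma adjusted p = 0.168). Its groups overlapped in both protocols, in native conditions through FLAG replicate 2. Rab7, the main Rab of late endosomes, lay above WT in every FLAG library of both protocols by 0.31 (SE 0.10, limma adjusted p = 0.154).

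The Rab genes of the endoplasmic reticulum and Golgi split evenly, with 6 of 12 positive over all libraries, 3 of 12 after crosslinking and 7 of 12 in native conditions. Rab6b, the neuronal form of the Golgi Rab6, was the lowest. It read 3.91 and 4.59 in crosslinked FLAG against 4.99 and 5.19 in WT, and 3.61, 4.80 and 3.67 in native FLAG against 5.11, 5.08 and 5.11. Every FLAG library lay below every WT library, and FLAG replicate 2 lay closest to WT in both protocols. The difference was -0.98 (SE 0.23, limma adjusted p = 0.0865), and it passed the test at -1.18 (limma adjusted p = 0.0140) without FLAG native replicate 2, a fit that called 4.42% of all genes. Its widely expressed relative Rab6a had a positive difference of 0.51, was not called with all libraries, and reached 0.58 (limma adjusted p = 0.0461) without WT crosslinked replicate 2, where 2.52% of all genes were called. In the native libraries alone, array weights and the fit without FLAG native replicate 2 each called Rab6a (0.73 and 0.76) and Rab33b (1.40 and 1.46), a Golgi Rab of autophagy, higher and Rab6b (-1.30 and -1.46) lower. These fits called 22.5% and 19.9% of all genes.

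**Figure D4:**
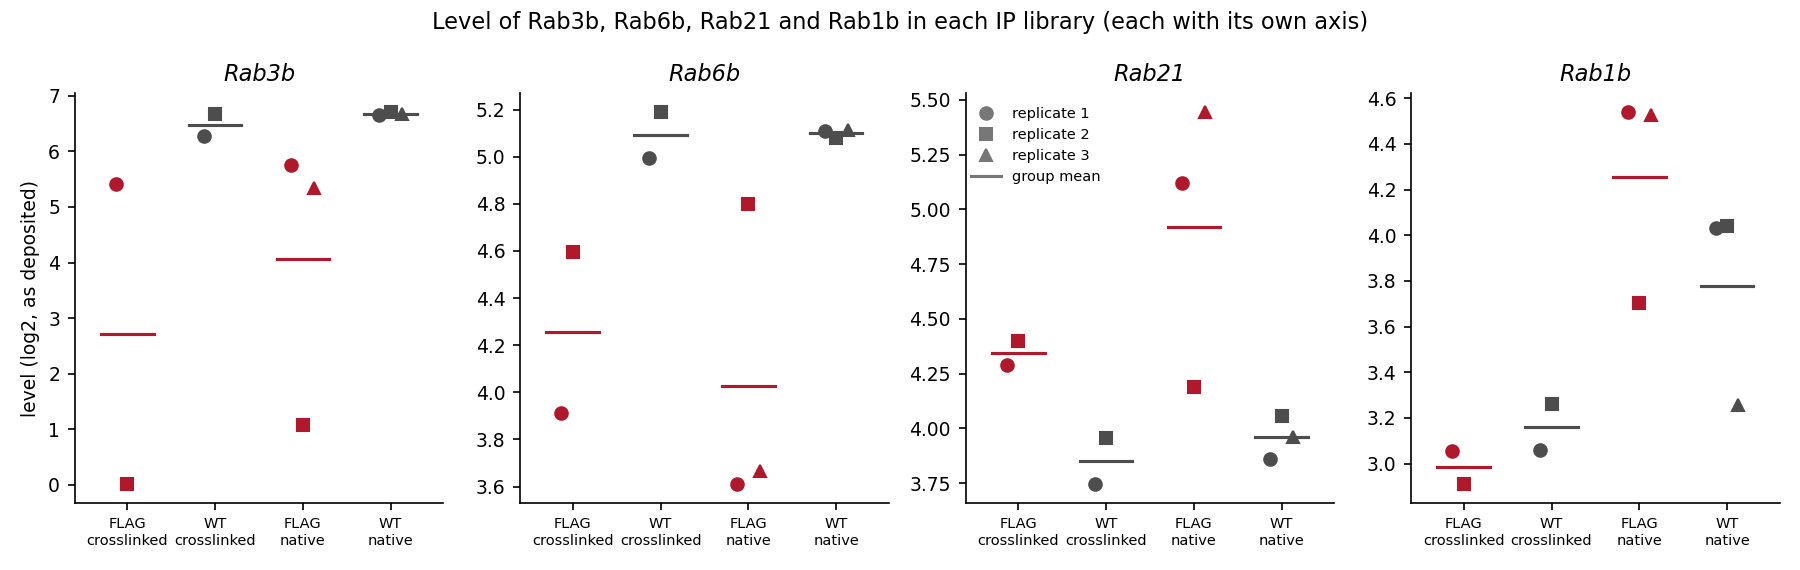
Level of Rab3b, Rab6b, Rab21 and Rab1b on the deposited log2 scale (vertical axes, each with its own range) in each of the 10 libraries, by group (horizontal axis), with symbols for the replicate number and lines for group means. FLAG replicate 2 stood at 0.01 and 1.07 for Rab3b, against 5.34 to 6.71 in all other libraries.

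In the group of regulated secretion, Rab3b was set apart by the libraries of 1 FLAG replicate number. Rab3b, a Rab of synaptic and secretory vesicles, lies on chromosome 4 of GRCm38 from 108879063 to 108943324 on the plus strand. It read 5.41 and 0.01 in crosslinked FLAG, 6.27 and 6.67 in crosslinked WT, 5.76, 1.07 and 5.34 in native FLAG, and 6.66, 6.71 and 6.67 in native WT. Both libraries of FLAG replicate 2 were far below all others, and the remaining 3 FLAG libraries were also below all 5 WT libraries. The gap between the higher FLAG replicate 2 library and the lowest of the other 8 libraries was 4.27, the largest such gap of the 15899 genes, and the next gene, Ddr2, had 3.28.

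With all libraries the difference of Rab3b was -3.08 (SE 1.05, limma adjusted p = 0.159). Array weights gave -5.57 (limma adjusted p = 0.000531), with a weight of 10.2 on FLAG crosslinked replicate 2, the library where Rab3b was lowest. Without both FLAG replicate 2 libraries, a fit added after the values were seen, the difference of Rab3b was -1.10 (SE 0.14, limma adjusted p = 0.0164). Within the native libraries it was called with array weights (-1.80, limma adjusted p = 0.0476) and without FLAG native replicate 2 (-1.13, limma adjusted p = 0.00735), fits that called 22.5% and 19.9% of all genes. An antisense gene that overlaps 9.0% of the exon bases of Rab3b, 8030443G20Rik, had the same pattern, at -1.35 and -3.81 in crosslinked FLAG and 0.40, -3.59 and -0.07 in native FLAG against 0.95 to 1.52 in WT. In the fit without FLAG replicate 2, 4 Rab genes were called, Rab25 and Rab21 higher and Rab3b and Rab6b lower (8.33% in all), where 2.38% of all genes were called higher and 1.15% lower. The other 3 members of the group were not called. With array weights, Rab3c was called lower in FLAG (-0.71, limma adjusted p = 0.00684) and Rab26 higher in crosslinked than in native libraries (0.63, limma adjusted p = 0.00532). Rab3c, also a synaptic vesicle Rab, read 2.03 and 1.07 against 1.83 and 1.98, and 2.08, 0.93 and 1.27 against 1.96, 1.46 and 2.24 (-0.42, SE 0.27, limma adjusted p = 0.361). Rab26 and Rab3a differed by -0.16 and 0.20.

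The 4 members with a ciliary or other role (Rab23, Rab28, Rab40b and Rab40c) ranged from -0.28 to 0.04 over all libraries. Rab28 was called lower in the native libraries without FLAG native replicate 2 (-0.63, limma adjusted p = 0.0287), a fit that called 19.9% of all genes. Over the whole family, 31 of 48 differences were positive (64.6%), where 46.8% of all genes and 50.7% of all protein-coding genes were. In 5 Rab genes the FLAG libraries were all above the WT libraries in both protocols (10.4%, against 4.84% of all genes). These were Rab25, Rab21, Rab14, Rab7 and Rab11a. In Rab3b, Rab6b and Rab13 they were all below (6.25%, against 4.47% of all genes).

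**Figure D5:**
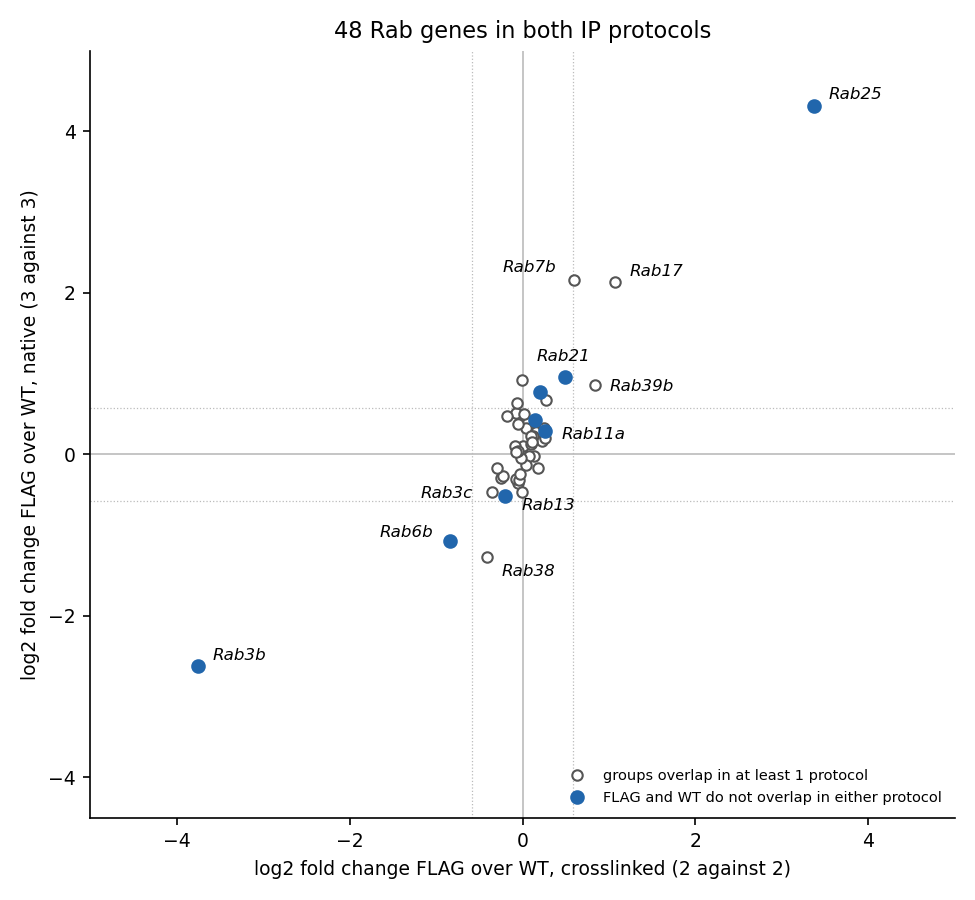
Log2 fold change FLAG over WT of the 48 Rab genes in the crosslinked (horizontal axis) and the native libraries (vertical axis), with dotted lines at 0.58 in both directions. Filled points are the 8 genes whose FLAG and WT libraries did not overlap in either protocol, with Rab25 at 3.37 and 4.32 and Rab3b at -3.76 and -2.62.

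The proteins that run the Rab cycle were called in no comparison of FLAG with WT by limma. Of 144 genes in 4 lists, 131 were in the matrix, with 10 higher and 7 lower over all libraries at an unadjusted p under 0.05, where 11.2% of all genes were higher and 9.85% lower. All 8 chaperone and prenylation genes were present (median 0.29), from Rabggta, a subunit of the enzyme that attaches the lipid, at -0.44 to Chml, a Rab escort protein, at 0.90. The 41 exchange factor genes had a median of 0.01, from Rin3, which acts on Rab5, at -0.46 to Mon1b, which acts on Rab7, at 0.68. The 37 TBC genes had a median of -0.07, from Sgsm1 at -1.08 to Grtp1 at 0.78, and 9 of 37 were positive. The 45 effector genes had a median of 0.01, from Mical2 at -0.97 to Rims1, a Rab3 effector of the active zone, at 0.94.

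The comparison of the 2 protocols, with genotype as a covariate, called 1.17% of all genes higher and 2.94% lower in crosslinked than in native libraries, and 1 of 48 Rab genes. Rab1b, which acts in transport from the endoplasmic reticulum to the Golgi, read 3.06 and 2.91 in crosslinked FLAG and 3.06 and 3.26 in crosslinked WT. It read 4.54, 3.70 and 4.53 in native FLAG and 4.03, 4.04 and 3.26 in native WT, where replicate 3 lay at the upper end of the crosslinked range. The difference, crosslinked minus native, was -0.94 (SE 0.23, limma adjusted p = 0.0482). Same-numbered libraries of a genotype deviated together weakly across the protocols. With the replicate number as a block the difference was -1.01 (limma adjusted p = 0.128), while with genotype and number together as a random block it was -0.96 (limma adjusted p = 0.0141). The call was kept in 2 of the 10 fits that left out 1 library, those without FLAG native replicate 2 or WT native replicate 3. Rab34 was called higher in crosslinked than in native libraries with array weights (1.02) and without WT native replicate 2 (1.07), and Rab32 with array weights (0.86). Array weights called 12.8% of all genes in this comparison and 8.33% of the Rab genes. The fit without WT native replicate 2 called 312 genes higher and 440 lower of 15899. Of the Rab cycle genes, Rabggtb, a subunit of the enzyme that attaches the lipid, was called higher (0.92, limma adjusted p = 0.00878) and Rabac1, an acceptor of prenylated Rab proteins, and Grtp1 were called lower after crosslinking (-1.88 and -0.88, limma adjusted p = 0.00746 and 0.0396). With the replicate number as a block Grtp1 was no longer called (-0.88, limma adjusted p = 0.149).

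The MEX-3 recognition element, a pair of short cores at most 8 bases apart, is a consensus from C. elegans. The study states that target recognition by mammalian MEX3 proteins remains to be worked out. The element was searched as letters on the transcribed strand, in the longest 3′ UTR that the annotation gives for a gene. The 3′ UTR of Rab25 held no match, but it was 214 nt long, and 6.57% of coding genes had one as short or shorter. In so short a stretch the absence of a match says little. At least 1 match was found in 41 of the 48 Rab genes (85.4%), and in 79.1% of the 12177 protein-coding genes with a 3′ UTR. Matches numbered 3.01 per kb over the Rab genes and 2.67 per kb over all. With another form of the element, that of the study's results text, the order turned, at 2.45 per kb over the Rab genes and 2.52 per kb over all, with matches in 83.3% and 79.3% of the genes. Counted at each starting base, so that matches can overlap, Rab11a held 7 in 1550 nt, Rab11b 10 in 5184 nt, Rab21 8 in 3688 nt, Rab3b 5 in 2511 nt and Rab6b 9 in 4030 nt. The first match of each is printed to set them beside Rab25, in 30 bases of 3′ UTR with the match in capitals.
Rab11a: ccaggtcTGAGATTTAAATATAtttgtaat
Rab11b: gctcctgcctGTAGATTTAtgctgggagaa
Rab21: ttttaccaatGGAGTTATAgaattaacagt
Rab3b: tccctggAGAGCTCAGATTCTAgtgatgca
Rab6b: ggggtgggaacTGAGTTTAtcaagactgga
Rab11a and Rab21, with higher values in FLAG, and Rab3b and Rab6b, with lower values, all held matches, as 79.1% of the protein-coding genes did. None of them was called with all libraries at equal weight. A match of letters is not a binding site, and the part of the element in the differences was not tested.

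Counting could blur some members. The exons of 18 Rab genes overlap another annotated gene, for 14 of them on the opposite strand, and 21 shared at least 1 stretch of 75 nt with another gene in their longest transcript. The largest shares were those of Rab4b (92.9% with Gm21983), Rab43 (89.9% with Gm45140), Rab2b (68.1% with Gm43766) and Rab24 (44.1% with Prelid1), and 6 others shared more than 10% (Rab6a 20.7%, Rab33b 19.5%, Rab39b 14.8%, Rab7 13.8%, Rab11b 12.4% and Rab5b 10.5%). The values of these 10 genes are uncertain.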

How the data were processed

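RNA that came down with the FLAG antibody was measured in 10 libraries, which the labels describe by genotype, protocol and replicate number. The submitters' processing notes name FastQC, cutadapt, Trimmomatic, HISAT2, featureCounts and limma with the builds GRCm38 and mm10, without versions, and the study's methods name DESeq2 for normalization. The matrix that the authors deposited as filtered and normalised holds log2 values of 15899 genes, with nearly the same distribution in each library, so that read depth is unknown. No count model was fitted. FLAG native replicates 1 and 3 had 329 and 178 genes at their lowest value (-1.70 and -1.99), against at most 3 elsewhere. All sample columns (10) matched a label.

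Linear models (lmFit) and moderated statistics (eBayes, with a mean-variance trend) of limma 3.58.1 in R 4.3.3 compared FLAG and WT on the values as deposited, without a pseudocount, with Benjamini-Hochberg adjustment over all genes. The steps were tested on simulated data with 200 changed genes. The design text calls the replicates biological, and p-values measure the spread between these libraries only. Same-numbered libraries of the 2 protocols correlated weakly within a genotype (deviations from group means, r = 0.15 to 0.39 in 4 pairs), so a number can mark a shared culture. The 2 crosslinked libraries of a group deviate from their mean as mirror images, so these pairs are not separate results. Between same-numbered FLAG and WT libraries the correlation was negative (r = -0.43 to -0.15). Lengths, overlaps and 3′ UTRs came from GENCODE M21, in which all 48 Rab genes were found (43 with the start and end of the matrix), and genome bases from GRCm38. Level per kb is the log2 level minus log2 of the merged exon length.

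The members and lists were chosen with earlier results of these data known. Values of every library were to be given for Rab25, Rab11a, Rab11b, Mex3a, each called Rab gene, the 5 highest and 5 lowest Rab differences over all libraries and the 3 highest levels per kb, and of each list the called genes and both extremes. Rab14, Rab7, Rab6a, Rab33b, Rab28, Rab32, Rab34, Msto1 and Ddr2 were named after their values were seen. Alternatives were pseudocounts of 1 and 8, minimum mean linear values of 1 and 10, quantile normalization, median centring, array weights, the replicate number as a block, no trend, 1 fit of 4 groups, each library left out, the longest transcript as the length, and another form of the recognition element or merged 3′ UTRs. Added after seeing the data were the culture as a random block or as the unit of the permutation, a crossed block, a common floor at -1.70 and a fit without both FLAG replicate 2 libraries. Python 3.11.15, numpy 2.4.6, pandas 2.3.3, scipy 1.17.1 and matplotlib 3.10.9 were used.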

Additional observations from a re-analysis of the deposited data

How the results depend on the processing

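Rab25 kept its direction in all fits run, from 3.73 to 4.11 in the 10 all-library fits that left out 1 library (called in 10 of 10), and it could not be tested with a minimum mean linear value of 10, which removes it. With a pseudocount of 1 its difference over all libraries was 1.61 and still called (1.49 crosslinked, 1.69 native), and with 8 it was 0.38, under the fold of a call, since 8 is far above its linear level. With values under -1.70 raised to it, it was 3.05 over all libraries and still called, and 0.06 in place of 0.95 between the protocols, and the other Rab counts were as before. In the native libraries it passed the test with array weights (4.09), in 1 fit of 4 groups (4.32) and without FLAG native replicate 2 (4.16; 4.02 to 4.73 over the libraries left out), and in the crosslinked libraries it passed in no fit. The number of Rab genes called over all libraries was 1, and 0 with a pseudocount of 8 or a minimum of 10, 8 with array weights (16.7%, against 13% of all genes), 1 to 3 with 1 library left out (3 without FLAG native replicate 2, 6.25% against 4.42%, and 2 without WT crosslinked replicate 2, 4.17% against 2.52%) and 4 without both FLAG replicate 2 libraries (8.33% against 3.53%). In the native libraries it was 0, and 10 with array weights (20.8%, against 22.5% of all genes), 1 in the fit of 4 groups and 0 to 9 with 1 library left out, 9 being without FLAG native replicate 2 (18.8% against 19.9%). For crosslinked against native it was 1, and 0 with a pseudocount of 1 or 8, a minimum of 10, the replicate block, no trend, the fit of 4 groups or without both FLAG replicate 2 libraries, 4 with array weights (8.33% against 12.8%) and 0 to 1 with 1 library left out. The cause of these moves was not tested. The replicate block left Rab25 at 3.94 (limma adjusted p = 0.0150) and, of the calls in the text, ended those of Rab1b and Grtp1, while it took the calls of all genes from 42 higher and 37 lower to 14 and 20 (FLAG against WT) and from 186 and 467 to 36 and 269 (crosslinked against native). The culture as a random block left Rab25 at 3.88 (limma adjusted p = 0.0209). A crossed replicate block in the crosslinked libraries, chosen after seeing the data like the fit without FLAG replicate 2, called 0 Rab genes. Array weights took Rab3b to -5.57 (limma adjusted p = 0.000531), with most of the weight on FLAG crosslinked replicate 2 (10.2) and WT crosslinked replicate 1 (9.02). The median of the Rab genes over all libraries stayed positive, from 0.05 to 0.17. By the transcript length Rab3b and Rab2a exchanged places in the order per kb (4.86 and 4.86). The other form of the recognition element was found in 83.3% of the Rab genes and 79.3% of all, at 2.45 and 2.52 matches per kb, an order opposite to that of the report's form, and merged 3′ UTR exons gave 89.6% and 81.0%, at 2.96 and 2.61 per kb. Depth is unknown, so no counting error can be given for Rab25, Rab17 and Rab7b, the 3 Rab genes with the lowest mean log2 level.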
